A study of Mus musculus with 6 samples.

Results

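The 10 genes described here belong to pigment cells: the melanin-synthesis enzymes Dct, Tyr and Tyrp1, the melanosome proteins Pmel, Mlana, Gpnmb and Slc45a2, and the regulator Mitf with the receptors Kit and Ednrb. The list was set as symbols, with earlier results of these data known. Each symbol was matched to 1 Ensembl gene among the 55769 features of every file. RNA-seq of cochlear tissue on postnatal day 3 compared Plscr5-/- mice, which carry a disrupted gene of the phospholipid scramblase family, with wild type mice, in 3 libraries per genotype. The labels do not give the strain, coat colour, sex, knockout strategy or number of animals behind a library, nor which parts of the cochlea were dissected. They also mention a Pou4f3 mutant line in the extraction text that no library lists, and the genotype label was used. Levels are in TPM, an abundance corrected for transcript length and set to the same total in every library, so that levels of different genes can be set side by side. Sequencing depth is unknown, because TPM keeps no read totals.

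In the cochlea, pigment cells are best known as the intermediate cells of the stria vascularis, the secretory epithelium of the lateral wall. These neural crest-derived melanocytes lie between the marginal and basal cell layers, and their potassium channel Kcnj10 is required for the endocochlear potential on which hearing depends. Tyr starts melanin synthesis by oxidising tyrosine, and Dct and Tyrp1 act on later intermediates. The transcription factor Mitf drives these genes through a short promoter motif called the M-box, and signalling through Kit and Ednrb supports the migration and survival of melanocyte precursors.

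The promoters of the 3 enzyme genes are shown first because they share one M-box sequence while their transcripts stood at very different levels in these libraries. The windows run from 250 bases before to 50 bases after the annotated start on the gene's strand, from RefSeq (GRCm38.p6), at chr14:118052197-118052496 (minus strand) for Dct, chr7:87493463-87493762 (minus strand) for Tyr and chr4:80833963-80834262 (plus strand) for Tyrp1. Capitals mark the 10 letters GTCATGTGCT and, once more in Dct, the 6 letters CACATG, which are the reverse complement of the M-box core CATGTG contained in the longer motif.
Dct: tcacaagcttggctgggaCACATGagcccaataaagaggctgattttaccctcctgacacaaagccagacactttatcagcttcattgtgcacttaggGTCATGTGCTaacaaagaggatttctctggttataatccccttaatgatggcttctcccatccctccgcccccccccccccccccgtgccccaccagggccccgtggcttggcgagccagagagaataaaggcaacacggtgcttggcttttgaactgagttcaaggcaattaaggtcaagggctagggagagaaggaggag
Tyr: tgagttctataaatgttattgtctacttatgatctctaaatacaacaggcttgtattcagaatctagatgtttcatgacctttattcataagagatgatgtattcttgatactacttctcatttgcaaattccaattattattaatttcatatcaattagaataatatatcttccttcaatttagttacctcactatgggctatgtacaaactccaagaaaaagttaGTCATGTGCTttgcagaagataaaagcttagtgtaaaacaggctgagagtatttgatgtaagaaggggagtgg
Tyrp1: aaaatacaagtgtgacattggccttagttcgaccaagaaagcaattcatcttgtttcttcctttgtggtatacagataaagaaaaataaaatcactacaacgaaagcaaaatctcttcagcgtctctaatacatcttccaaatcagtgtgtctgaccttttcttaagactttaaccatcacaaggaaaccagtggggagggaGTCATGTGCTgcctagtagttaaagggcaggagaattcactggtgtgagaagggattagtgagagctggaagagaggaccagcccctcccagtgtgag
The 10-letter motif began 152 bases before the annotated start in Dct, 23 bases before it in Tyr and 48 bases before it in Tyrp1. Searched on both strands, it was found in 61 of 32851 RefSeq promoter windows of this length (0.186%), and the core CATGTG, with which it overlaps, in 4650 (14.2%). The 10 letters are the longest run that the 3 windows have in common, so that their presence in the 3 genes is a description. RefSeq windows were matched for 7 of the 10 genes, and those of Gpnmb, Mitf, Kit and Ednrb held neither sequence. Pmel, Mlana and Slc45a2 had no entry. A match does not show that a factor was bound, and no match says only that the letters are not in this window.

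Within the tyrosinase family, Dct was measured well above the other 2 enzymes in both genotypes. Dct (ENSMUSG00000022129), dopachrome tautomerase and an early marker of the melanocyte lineage, stood at 6.15, 7.01 and 6.77 TPM in Plscr5-/- cochleae and at 8.07, 5.20 and 4.63 TPM in wild type cochleae. The 3 knockout values lay inside the wild type range, whose highest value was that of replicate 1. The means were 6.64 ± 0.44 TPM in Plscr5-/- cochleae and 5.97 ± 1.84 TPM in wild type cochleae (SD, n = 3 each). On the log2(TPM + 1) scale, which understates changes of low genes, the limma log2 fold change (knockout minus wild type) was 0.16 (SE 0.19, 95% confidence interval -0.28 to 0.61, adjusted p = 0.989). That small difference turned on single libraries, since it was 0.03 without wild type replicate 3 and 0.37 without wild type replicate 1 (limma adjusted p = 0.9997).

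Tyr (ENSMUSG00000004651), the rate-limiting enzyme of melanin synthesis, stood at 0.20, 0.79 and 0.60 TPM in Plscr5-/- cochleae and at 0.53, 0.23 and 0.17 TPM in wild type cochleae. Tyrp1 (ENSMUSG00000005994), tyrosinase-related protein 1, stood at 0.10, 0.09 and 0.10 TPM in Plscr5-/- cochleae and at 0.03, 0.03 and 0.12 TPM in wild type cochleae. All 12 of these values were under 1 TPM, and the genotypes overlapped for both genes. Dct exceeded Tyr by 8.87- to 30.8-fold within a library, both extremes being knockout libraries. Across the 6 libraries the level of the 3 enzymes together was therefore mostly that of Dct, with a sum of 7.27 ± 0.74 TPM in Plscr5-/- cochleae and 6.34 ± 2.0 TPM in wild type cochleae (SD, n = 3 each).

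Among the melanosome genes, Pmel was the only one that exceeded 1.29 TPM in any library. Pmel (ENSMUSG00000025359), whose product forms the amyloid fibrils on which melanin is laid down, stood at 7.17, 6.68 and 8.26 TPM in Plscr5-/- cochleae and at 7.59, 7.03 and 5.19 TPM in wild type cochleae. The groups overlapped, with wild type replicate 3 the lowest library. The means were 7.37 ± 0.81 TPM in Plscr5-/- cochleae and 6.60 ± 1.26 TPM in wild type cochleae (SD, n = 3 each), with a limma log2 fold change of 0.15 (SE 0.16, 95% confidence interval -0.23 to 0.53, adjusted p = 0.989). Without wild type replicate 3 the log2 fold change was 0.01 (limma adjusted p = 0.9948). Exons of Pmel overlap those of Cdk2 and Dgka on the opposite strand in GENCODE M21. Cdk2 stood at 33.63 to 37.40 TPM in Plscr5-/- cochleae and at 33.91 to 37.97 TPM in wild type cochleae, and Dgka at 18.78 to 21.12 TPM in Plscr5-/- cochleae and 19.77 to 20.47 TPM in wild type cochleae. Whether the counting used strand is not given in the sources used here, so the Pmel level is uncertain.

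Mlana (ENSMUSG00000024806), a melanosome protein known as a melanocyte antigen, stood at 0.72 and 0.14 TPM and was listed at 0 in the third library of Plscr5-/- cochleae, and it stood at 0.16, 0.28 and 0.57 TPM in wild type cochleae. Slc45a2 (ENSMUSG00000022243), a melanosomal transporter needed for normal pigmentation, stood at 0.35, 0.54 and 0.39 TPM in Plscr5-/- cochleae and at 0.34, 0.40 and 0.51 TPM in wild type cochleae. Neither gene reached 1 TPM in any library, and the genotypes overlapped for both. Gpnmb (ENSMUSG00000029816), a transmembrane glycoprotein of melanosomes that macrophages and bone cells also make, stood at 0.92, 0.79 and 0.74 TPM in Plscr5-/- cochleae and at 1.26, 1.29 and 0.87 TPM in wild type cochleae. All 3 knockout libraries lay below wild type replicates 1 and 2, but 1 of them lay above wild type replicate 3.

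**Figure D1:**
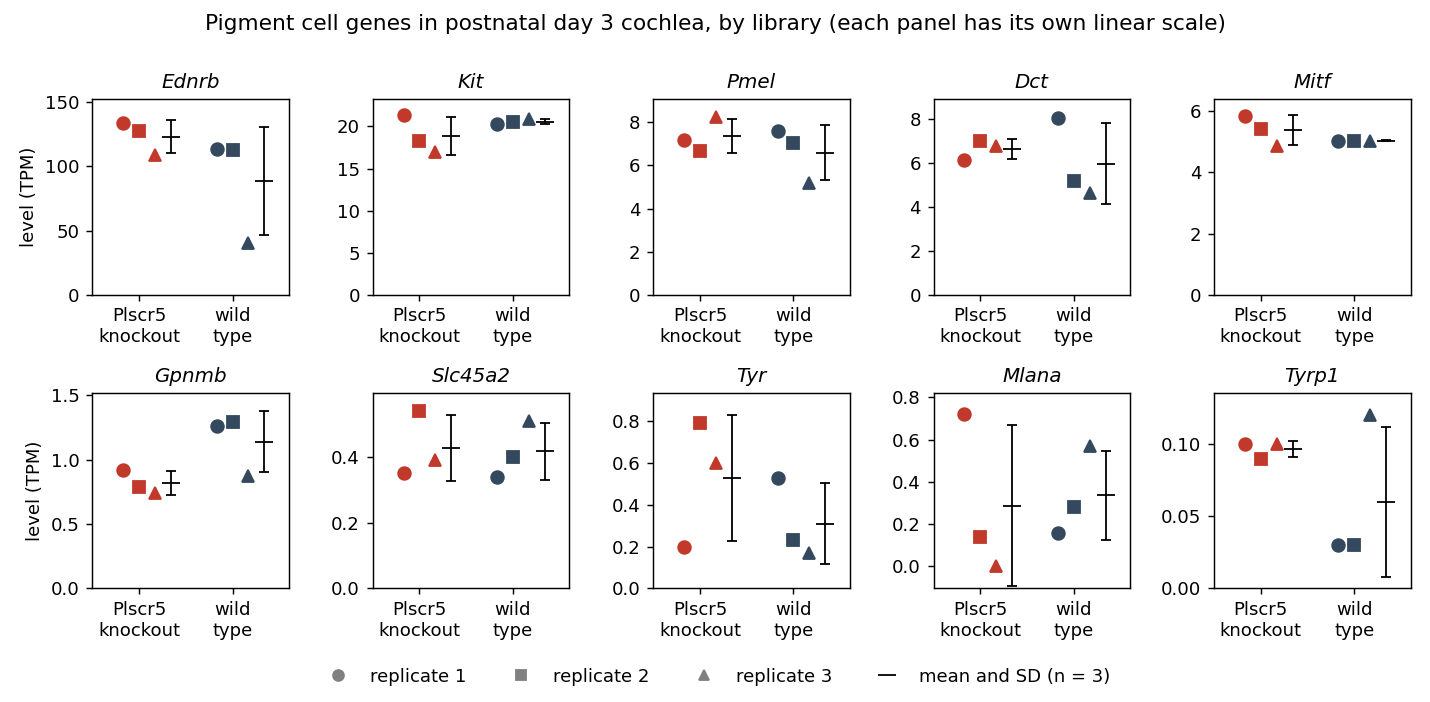
Level in TPM of each pigment cell gene in every library, with knockout libraries left (red) and wild type libraries right (dark), symbols for replicates and the mean and SD of 3 libraries beside them; panels run from the highest to the lowest mean and have their own linear axes. The groups overlap in all 10 panels, and wild type replicate 3 stands apart for Ednrb, at 40.10 TPM.

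The receptors Ednrb and Kit were the most abundant of the 10 genes, and Mitf stood close to Dct and Pmel. Mitf (ENSMUSG00000035158), the master regulator of the melanocyte lineage, which other cells express from alternative promoters, stood at 5.85, 5.43 and 4.87 TPM in Plscr5-/- cochleae and at 5.01, 5.03 and 5.04 TPM in wild type cochleae. The wild type values were almost identical and lay within Plscr5-/- cochleae range. The limma log2 fold change of Mitf was 0.08 (SE 0.13, 95% confidence interval -0.22 to 0.38, adjusted p = 0.989).

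Kit (ENSMUSG00000005672), the receptor tyrosine kinase for stem cell factor, stood at 21.31, 18.27 and 16.98 TPM in Plscr5-/- cochleae and at 20.28, 20.53 and 20.89 TPM in wild type cochleae. Knockout replicates 2 and 3 lay below all wild type libraries and knockout replicate 1 above them, so that the groups overlapped. The means were 18.9 ± 2.2 TPM in Plscr5-/- cochleae and 20.6 ± 0.3 TPM in wild type cochleae (SD, n = 3 each), with a limma log2 fold change of -0.13 (SE 0.11, 95% confidence interval -0.37 to 0.12, adjusted p = 0.989). Without knockout replicate 1 it was -0.21 (limma unadjusted p = 0.0591, adjusted p = 0.798), and without knockout replicate 3 it was -0.06.

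Ednrb (ENSMUSG00000022122), the endothelin receptor of neural crest derivatives, was the most abundant of the 10 genes and had the widest range in TPM between libraries. It stood at 133.93, 127.41 and 108.60 TPM in Plscr5-/- cochleae and at 113.93, 112.54 and 40.10 TPM in wild type cochleae. Wild type replicate 3 was far below the rest, and the other 5 libraries overlapped between genotypes. The means were 123.3 ± 13.2 TPM in Plscr5-/- cochleae and 88.9 ± 42.2 TPM in wild type cochleae (SD, n = 3 each). The limma log2 fold change was 0.61 (SE 0.44, 95% confidence interval -0.49 to 1.71, adjusted p = 0.989), and without wild type replicate 3 it was 0.12 (limma adjusted p = 0.912).

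Of 17097 tested features, 2 passed the limma threshold of an adjusted p of 0.05 (0.0117%), both lower in the knockout, and neither was a pigment cell gene. Features were tested if they had at least 1 TPM in at least 3 libraries, which 5 of the 10 genes met (Dct, Pmel, Mitf, Kit and Ednrb). Of these 5, 0 passed the threshold, and 0 had an unadjusted limma p under 0.05, against 4% of all tested features. The groups did not overlap at 0 of the 5 genes, against 9.33% of all tested features. Exact two-sided permutation of the library values gave p from 0.2 (Gpnmb) to 0.9 (Slc45a2) over the 10 genes, and 3 libraries against 3 cannot give less than 0.1. In a fit of all 30738 features with a value above 0, the other 5 genes had log2 fold changes of 0.21 (Tyr), 0.05 (Tyrp1), -0.08 (Mlana), -0.23 (Gpnmb) and 0.01 (Slc45a2), with limma adjusted p from 0.905 to 0.999. A gene under 1 TPM in every library cannot differ by more than 1 on this scale. As a check of the labels, Plscr5 itself stood at 4.33 ± 0.66 TPM in Plscr5-/- cochleae and 12.1 ± 2.6 TPM in wild type cochleae (SD, n = 3 each), with no overlap and a limma adjusted p of 0.29. Nothing in the labels says that the libraries came from separate animals, so p-values measure the spread between libraries, which may be partly technical.

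**Figure D2:**
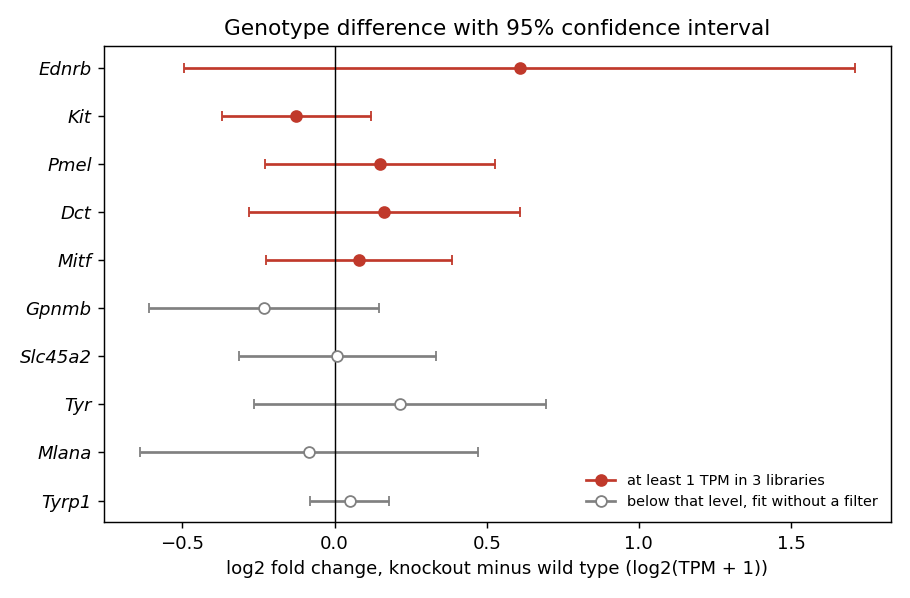
Log2 fold change on the log2(TPM + 1) scale (x axis, knockout minus wild type) of the 10 genes (y axis, by mean level), with 95% confidence intervals from limma; filled red points are the 5 tested genes and open grey points the 5 below the filter, from the fit without one. Every interval includes 0, and that of Ednrb, from -0.49 to 1.71, is the widest.

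The 10 genes differed widely in level. Ednrb lay above Kit in 6 of 6 libraries, and Kit above Pmel in 6 of 6, with no overlap in range. Pmel, Dct and Mitf formed a middle group whose ranges overlapped, with Pmel above Dct in 4 libraries and Dct above Mitf in 5. Gpnmb followed with no overlap. Slc45a2, Tyr, Mlana and Tyrp1 were the lowest, and their neighbouring ranges overlapped. Ednrb exceeded 92.2% of all tested features in mean level and Kit 54.7%, whereas Pmel exceeded 30.7%, Dct 28.8% and Mitf 25.4%. In the sum of the 10 genes, Ednrb made up 73.7% to 76.2% in knockout libraries and 72.5%, 73.8% and 51.4% in wild type libraries. Without Ednrb the sum was 40.4 ± 2.1 TPM in Plscr5-/- cochleae and 40.4 ± 2.7 TPM in wild type cochleae (SD, n = 3 each). Kit gave the largest part of it, with means of 18.9 TPM in Plscr5-/- cochleae and 20.6 TPM in wild type cochleae. The means of Dct, Pmel and Mitf were higher in the knockout and that of Kit lower, so the equal sums do not show that each gene was equal. In bulk tissue, fewer cells of a type and less RNA per cell cannot be told apart.

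The label of a melanocyte gene set was checked against wider lists. Of 11 further genes of pigment cells and their precursors, some of which other cells also make, 5 did not reach the filter. Among the 5 was Pax3, a transcription factor of the lineage, listed at 0 in every one of the 3 knockout libraries, against 0.02 to 0.08 TPM in wild type cochleae. Its groups thus did not overlap, with the knockout lower, beside 4.74% of all tested features, but all its values lay near 0. Mc1r, the melanocortin receptor, also among the 5, stood at 0 to 0.10 TPM in Plscr5-/- cochleae and 0 to 0.02 TPM in wild type cochleae. Gpr143, a melanosomal receptor, stood at 0.10 to 0.16 TPM in Plscr5-/- cochleae and at 0 to 0.11 TPM in wild type cochleae. Of the 6 tested, 3 had a positive and 3 a negative log2 fold change, and their median was 0.02, beside -0.01 over all tested features, and 0 passed (limma; 0 with an unadjusted p under 0.05). The median was -0.01 without Plscr5-/- replicate 3. Sox10, which glia and cochlear epithelium also express, is among the 6, and without it, a choice made after seeing the data, 3 of the 5 left had a positive and 2 a negative value, with a median of 0.05. The one with the smallest p, Slc24a5, a cation exchanger of pigment cells, stood at 1.31, 1.04 and 2.23 TPM in Plscr5-/- cochleae and at 0.68, 0.55 and 1.12 TPM in wild type cochleae (log2 fold change 0.49, SE 0.25, limma adjusted p = 0.989). Its groups overlapped through 1 library on each side. Rab38, a small GTPase that carries enzymes to melanosomes, stood at 5.53 ± 0.84 TPM in Plscr5-/- cochleae and 4.91 ± 1.21 TPM in wild type cochleae. Mlph, a melanosome transport adaptor, stood at 1.16 ± 0.41 TPM in Plscr5-/- cochleae and 1.47 ± 0.77 TPM in wild type cochleae, and the transporter Slc7a11 at 1.21 ± 0.16 TPM in Plscr5-/- cochleae and 1.31 ± 0.34 TPM in wild type cochleae (SD, n = 3 each).

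General machinery of melanosomes and other lysosome-related organelles, which most cells use, reached the filter except for Slc24a4, at 0.26 to 0.37 TPM across the libraries. Of 28 listed genes 27 were tested, 11 with a positive and 16 with a negative log2 fold change. Their median was -0.02, and -0.06 without wild type replicate 3. Of the 27, 0 passed in limma, and 1 had an unadjusted p under 0.05. That gene was Bloc1s4, a subunit of a complex that sorts cargo to melanosomes, at 13.12, 12.34 and 11.15 TPM in Plscr5-/- cochleae and 9.58, 10.47 and 9.22 TPM in wild type cochleae. Its groups did not overlap (log2 fold change 0.29, SE 0.12, limma adjusted p = 0.989), as was the case with higher knockout values at 2 of the 27 genes, beside 4.6% of all tested features. Bloc1s1 and Dtnbp1, members of the same complex, had log2 fold changes of 0.14 and 0.17, and Hps5 one of -0.19.

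Signals and regulators of melanocyte development were spread around 0. Of 23 listed genes 19 were tested, 9 with a positive and 10 with a negative log2 fold change (median -0.01), and 0 passed (limma; 1 had an unadjusted p under 0.05). That gene was Bcl2, a survival factor that melanocytes depend on, at 29.19, 28.25 and 27.36 TPM in Plscr5-/- cochleae and 35.10, 32.21 and 35.62 TPM in wild type cochleae. No Plscr5-/- library reached the lowest wild type one (log2 fold change -0.27, SE 0.08, limma adjusted p = 0.989), as at 4.74% of all tested features. Kitl, the ligand of Kit, stood at 14.60, 12.53 and 9.37 TPM in Plscr5-/- cochleae and at 20.62, 13.17 and 12.89 TPM in wild type cochleae, with overlap (log2 fold change -0.32, SE 0.21, limma adjusted p = 0.989). Met had a log2 fold change of -0.17 and Nf1 one of 0.13. Edn3, the ligand of Ednrb, stood at 6.60, 8.0 and 8.04 TPM in Plscr5-/- cochleae and at 7.65, 7.10 and 7.20 TPM in wild type cochleae, so that the low Ednrb value of wild type replicate 3 had no counterpart in its ligand.

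Markers of strial intermediate cells outside pigment synthesis were all measured. Of 8 such genes 1 had a positive and 7 a negative log2 fold change (median -0.08), beside 46.6% positive over all tested features. Of the 8, 0 passed (limma; 0 with an unadjusted p under 0.05). The median was -0.0007 without wild type replicate 3 and -0.13 without wild type replicate 2. Kcnj10, the inwardly rectifying potassium channel of these cells, which glia and supporting cells also express, stood at 38.95, 22.46 and 20.85 TPM in Plscr5-/- cochleae and at 25.99, 25.36 and 17.72 TPM in wild type cochleae. Knockout replicate 1 was the highest library and wild type replicate 3 the lowest, and the groups overlapped (log2 fold change 0.21, SE 0.25, limma adjusted p = 0.989). Met, Cd44 and Kcnj13 had values of -0.17, -0.12 and -0.11. The strial layers on either side were also measured: of 12 tested marginal cell genes 11 had a negative log2 fold change (median -0.13), and of 7 basal cell genes 5 did (median -0.05), and 0 of either passed (limma; 1 marginal and 0 basal genes had an unadjusted p under 0.05). Without wild type replicate 3 the basal median turned to 0.11, and without Plscr5-/- replicate 2 it was -0.02. The marginal gene was Slc12a2, a sodium, potassium and chloride cotransporter, at 110.82, 108.36 and 104.47 TPM in Plscr5-/- cochleae and 131.62, 115.17 and 131.95 TPM in wild type cochleae. Its groups did not overlap, with the knockout lower, as at 4.74% of all tested features (log2 fold change -0.22, SE 0.08, limma adjusted p = 0.989). In the basal list the groups did not overlap at 1 of 7 genes, Gjb2, also lower in the knockout. Gjb2 stood at 233.91, 228.3 and 238.66 TPM in Plscr5-/- cochleae and at 249.15, 243.44 and 295.4 TPM in wild type cochleae. The summed marginal list ran from 315 to 351 TPM in Plscr5-/- cochleae and from 338 to 388 TPM in wild type cochleae. The marginal cell subunit gene Bsnd, listed at 0 in 1 library of each genotype, did not exceed 0.28 TPM.

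**Figure D3:**
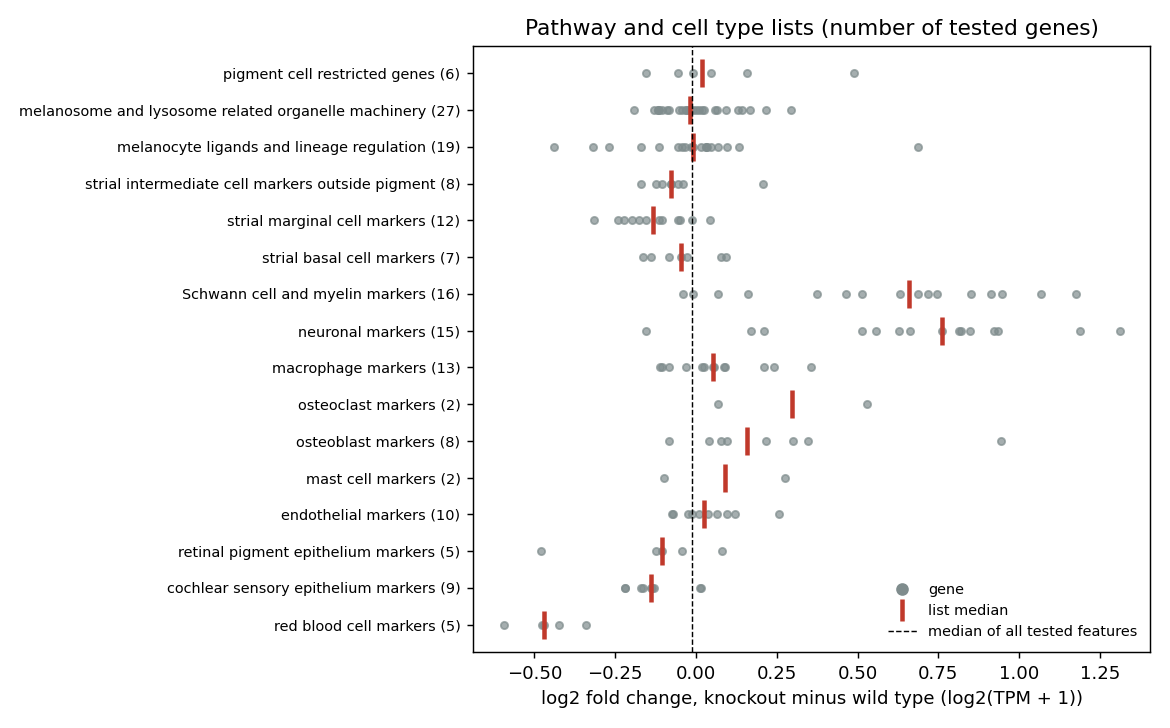
Log2 fold change on the log2(TPM + 1) scale (x axis, knockout minus wild type) of the tested genes of each pathway or cell type list (rows, with the number of genes), as grey points, with the list median as a red bar and the median of all tested features, -0.01, as a dashed line. The 3 pigment pathway lists have medians from -0.02 to 0.02, whereas the Schwann cell and neuronal lists have medians of 0.66 and 0.76.

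Each receptor and shared gene was set beside markers of other cells that could hold it. Ednrb is also expressed by Schwann cells and other glia, and the Schwann cell and myelin list moved with it between libraries. Of 16 tested genes of that list 14 had a positive log2 fold change (median 0.66), as did 14 of 15 neuronal genes (median 0.76). Over all tested features 46.6% were positive. In either list 0 passed (limma; 0 Schwann and 1 neuronal genes had an unadjusted p under 0.05). The neuronal gene was Uchl1, at 407.1 ± 3.3 TPM in Plscr5-/- cochleae and 361.9 ± 18.4 TPM in wild type cochleae (SD, n = 3 each). With higher knockout values, the groups did not overlap at 3 of the 16 and 4 of the 15 genes, beside 4.6% of all tested features. The 2 list medians came to 0.21 and 0.28 when wild type replicate 3 was left out. Relative to the mean of the 6 libraries, Ednrb stood at 0.43, 0.36 and 0.13 in Plscr5-/- cochleae and at 0.20, 0.18 and -1.29 in wild type replicates 1 to 3 on the log2(TPM + 1) scale. The median of 16 Schwann cell and myelin genes stood at 0.63, 0.24 and 0.08 in Plscr5-/- cochleae and at 0.09, 0.10 and -1.27 in wild type cochleae on the same scale. The 15 neuronal genes likewise stood at 0.55, 0.43 and 0.13 in Plscr5-/- cochleae and at -0.06, 0.24 and -1.35 in wild type cochleae. In summed level the Schwann list ran from 1924 to 2714 TPM in Plscr5-/- cochleae and from 979 to 1894 TPM in wild type cochleae, and the neuronal list from 1113 to 1340 TPM in Plscr5-/- cochleae and from 618 to 1129 TPM in wild type cochleae. Wild type replicate 3 was the lowest of the 6 libraries at 14 of the 16 Schwann genes and at 14 of the 15 neuronal genes, compared with 20.9% of all tested features. Its Ednrb level was 0.369 times that of the next lowest library, a ratio at or under which 256 of 17097 tested features (1.5%) lay. The same ratio had a median of 0.376 over the Schwann list, and it was 0.89 for Dct and 0.777 for Pmel. The part of nerve tissue in the Ednrb level was not tested.

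Not every gene shared by glia and pigment cells was low in that library. Sox10, a regulator of both lineages that cochlear epithelium also expresses, stood at 226.00, 181.90 and 187.44 TPM in Plscr5-/- cochleae and at 203.99, 206.41 and 186.10 TPM in wild type cochleae. Foxd3, a factor of neural crest and glial precursors, stood at 11.22, 4.99 and 5.15 TPM in Plscr5-/- cochleae and at 6.96, 5.65 and 1.04 TPM in wild type cochleae. Erbb3, the glial neuregulin receptor, stood at 79.38, 61.97 and 58.76 TPM in Plscr5-/- cochleae and at 69.35, 64.66 and 55.69 TPM in wild type cochleae. Foxd3 and Erbb3 were thus lowest in wild type replicate 3, and Sox10 was not. These genes are part of the Schwann cell and myelin list counted above. Another gene of that list, S100b, was highest in wild type replicate 3, at 356.94 TPM. Kit and Mitf were not lowest there either, with ratios to the lowest other library of 1.23 and 1.04. Dct and Pmel were lowest there, with ratios of 0.89 and 0.777.

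**Figure D4:**
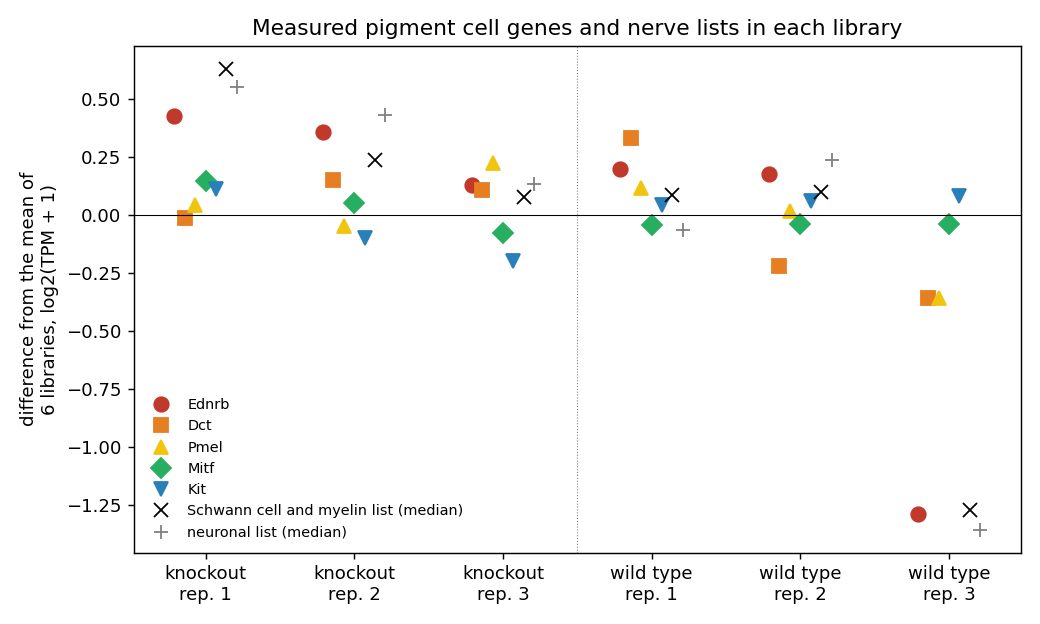
Difference of each library from the mean of the 6 libraries on the log2(TPM + 1) scale (y axis) for Ednrb, Dct, Pmel, Mitf and Kit and for the medians of the Schwann cell and neuronal lists, with knockout libraries left of the dotted line and wild type libraries right. In wild type replicate 3 Ednrb stands at -1.29 beside -1.27 for the Schwann list. Dct and Pmel are also lowest there, each at -0.36, whereas Kit stands at 0.08 and Mitf at -0.04.

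Kit marks mast cells as well as melanocytes. The 8 genes of the mast cell list summed to 4.22 to 6.81 TPM in Plscr5-/- cochleae and 4.71 to 6.33 TPM in wild type cochleae, and 2 were tested. The mast cell receptor subunit Fcer1a was listed at 0 in all 6 libraries, and Ms4a2 did not exceed 0.07 TPM. The proteases were measured, with Tpsb2 at 1.16 to 2.75 TPM in Plscr5-/- cochleae and 1.37 to 1.63 TPM in wild type cochleae, Cma1 at 0.94 to 2.71 TPM in Plscr5-/- cochleae and 1.48 to 2.80 TPM in wild type cochleae, and Cpa3 at 0.40 to 0.79 TPM in Plscr5-/- cochleae and 0.80 to 1.45 TPM in wild type cochleae. Cpa3, which was below the filter, thus had no overlap, with the knockout lower, beside 4.74% of all tested features. The part of mast cells in the Kit level was not tested. Gpnmb is shared with macrophages and osteoclasts. All 13 macrophage markers were tested (9 with a positive log2 fold change, median 0.05), with a sum of 143 to 173 TPM in Plscr5-/- cochleae and 151 to 159 TPM in wild type cochleae, and Csf1r alone stood at 14.25 to 21.91 TPM in Plscr5-/- cochleae and 12.72 to 22.52 TPM in wild type cochleae. Of the osteoclast list 2 of 8 genes were tested (median 0.30, and 0.18 without wild type replicate 1). That median was 0.07 with the filter at 5 TPM and 0.09 without a filter. The sum of the osteoclast list ran from 54.0 to 73.9 TPM in Plscr5-/- cochleae and from 47.4 to 74.2 TPM in wild type cochleae, most of it from Ctsk, and Dcstamp was listed at 0 throughout. The 10 endothelial markers summed to 335 to 359 TPM in Plscr5-/- cochleae and 327 to 361 TPM in wild type cochleae (median log2 fold change 0.02). The part of these cells in the Gpnmb and Ednrb levels was not tested. Mitf is shared with retinal pigment epithelium, whose defining genes Rpe65, Rgr and Lrat did not exceed 0.18 TPM in any library. Other genes of that list, which are not restricted to that epithelium, were measured, with Rlbp1 at 34.97 to 44.03 TPM in Plscr5-/- cochleae and 40.89 to 48.34 TPM in wild type cochleae, Ttr at 71.89 to 104.53 TPM in Plscr5-/- cochleae and 81.29 to 111.83 TPM in wild type cochleae, and Otx2 at 14.36 to 24.47 TPM in Plscr5-/- cochleae and 16.03 to 27.95 TPM in wild type cochleae. Of that list, which includes Mitf itself, 5 of 8 genes were tested (median -0.10), with a sum of 128 to 179 TPM in Plscr5-/- cochleae and 145 to 196 TPM in wild type cochleae. That median was 0.01 without Plscr5-/- replicate 1 and -0.21 without Plscr5-/- replicate 3. The part of such cells in the Mitf level was not tested.

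Genes of inner ear epithelium were measured in all libraries. The 9 genes of the sensory epithelium, its matrix and its neighbours summed to 8649 to 9718 TPM in Plscr5-/- cochleae and 9265 to 11470 TPM in wild type cochleae, with wild type replicate 3 the highest (median log2 fold change -0.14, with an unadjusted limma p under 0.05 for 2 of 9, Tectb and Otoa, beside 4% of all tested features). At 5 of the 9 genes (Tectb, Otoa, Gjb2, Otof and Atoh1) the groups did not overlap and the knockout was lower, beside 4.74% of all tested features. Gjb2 is on both this list and the strial basal list, so it was counted in each. The median was -0.08 without wild type replicate 3. The osteoblast list had a median of 0.16 over 8 tested genes and the red blood cell list one of -0.47 over 5. The osteoblast median was 0.29 without Plscr5-/- replicate 3 and 0.10 without Plscr5-/- replicate 1, and the red blood cell median was -0.07 without Plscr5-/- replicate 1 and -0.98 without Plscr5-/- replicate 2. In all, 0 genes passed in these 3 lists or in the mast cell, macrophage, osteoclast, endothelial and retinal lists (limma; 0 other genes with an unadjusted p under 0.05). The 9 pigment cell genes other than Ednrb, of which Kit was the most abundant, summed to 38.7 to 42.8 TPM in Plscr5-/- cochleae and 38.0 to 43.3 TPM in wild type cochleae.

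Among the enzyme and melanosome genes described here, only Dct and Pmel were tested, and other features were ranked by likeness to their mean pattern. Over the 6 libraries and among 12693 named features with a mean of at least 5 TPM, Zfp87 had the highest Pearson r with it, 0.986, followed by Cct2 (0.982), Sgip1 (0.979), Mrps31 (0.971) and Nudt10 (0.965). Zfp87 stood at 15.75, 15.04 and 17.90 TPM in Plscr5-/- cochleae and at 19.58, 12.61 and 10.12 TPM in wild type cochleae. Like Dct it was highest in wild type replicate 1 and lowest in wild type replicate 3. These values are descriptions over 6 libraries that share their scaling, picked as the highest of many, and none of the 5 was on a pigment cell list. That absence carries no information. The genes described here were left out of the ranking, and most further pigment cell genes had a mean under 5 TPM.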

How the data were processed

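Total RNA of postnatal day 3 cochleae was sequenced, per the labels' protocols, in 3 Plscr5-/- and 3 wild type libraries. The deposited values are TPM, a unit read from the values, which sum to the same total in each library. DESeq2 and the build mm8 appear, with no role, in the submitters' processing notes. Which aligner, quantifier and annotation were used is not given in the sources used here. Symbols and exon overlaps came from GENCODE M21 (52083 of 55416 Ensembl IDs matched), and promoter windows from RefSeq. An exact 0 can be a failed estimate.

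Features reaching 1 TPM in 3 or more libraries were transformed to log2(TPM + 1) and fitted by genotype with limma 3.58.1 in R 4.3.3 (intensity trend, robust moderation, Benjamini-Hochberg over all 17097 features, threshold 0.05). The fit was checked by a self-test with 200 features of known change. Single values were compared by exact permutation in scipy 1.17.1.

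The members and lists were chosen with earlier results of these data known. All 10 members were named; of each list, up to 4 genes with the smallest p and defining markers near 0; and the 5 features closest in pattern to Dct and Pmel. Edn3, Sox10, Foxd3, Erbb3, S100b, Csf1r, Ctsk, Rlbp1, Ttr and Otx2, the further mast cell and sensory epithelium genes, and the Pmel neighbours, were named after their values were seen. Of the red blood cell list, 7 of 8 symbols were matched. One listed marginal cell gene is not reported here. Alternatives were other pseudocounts, filters, moderation and scalings, a replicate block and each library left out, and 1 was added after seeing the data (the further pigment cell genes without Sox10).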

Additional observations from a re-analysis of the deposited data

How the results depend on the processing

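The count of pigment cell genes passing was 0 in all 15 alternatives, and the 5 tested genes kept their direction in 75 of 75 checks (limma adjusted p from 0.727 to 1). Part of these checks could not differ in direction. The filter, trend, moderation and replicate block alternatives leave the log2 fold change of a gene as it is. In 1 of those 75 an unadjusted p was under 0.05 (Dct without wild type replicate 1). The log2 fold change ranged over the alternatives from 0.03 to 0.37 for Dct, 0.01 to 0.24 for Pmel, 0.03 to 0.14 for Mitf, -0.21 to -0.06 for Kit and 0.12 to 0.86 for Ednrb. Over all features, those passing as lower numbered 2, but 0 without a filter, without the intensity trend and with the replicate block, and 1 without haemoglobin and mitochondrial genes. With single libraries left out they numbered 0 to 2, and those passing as higher 0 to 2. Features with an unadjusted p under 0.05 numbered 684, against 1250 with the replicate block and 354 to 1046 with single libraries left out. Same-numbered libraries had correlated deviations of 0.19, -0.05 and 0.24, and differently numbered ones had values from -0.27 to 0.13. The values 0.19 and 0.24 were thus the highest of all pairs. The main fit did not pair the libraries, because the labels do not say that the numbers mark shared litters. The mast cell list could not be computed with the filter at 5 TPM, because no gene was left. Read depth, which TPM does not keep, limits what can be said of the 5 genes near or under 1 TPM.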
